A study of Drosophila melanogaster with 2 samples.

Results

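The regions described here are promoter-proximal chromatin immunoprecipitation sequencing (ChIP-seq) regions of the fly zinc finger protein Jim that ranked immediately below the reproducible list. They were selected on measured signal. All regions of the list pooled over both replicates were ranked by the deposited signal value, the ranks that follow the reproducible list were taken down to rank 3000, and a region was retained when it lay off the X chromosome with its summit within 500 bp of an annotated transcript start. Of 30000 pooled regions, 1524 fell in this rank window, 1268 of these lay off X, and 686 met the promoter criterion. They are called the sub-threshold promoter regions below. Chosen by the same distance rule, 726 IDR promoter regions above the window and 5077 weaker promoter regions beyond rank 3000 served for comparison. IDR is the irreproducible discovery rate, a measure of how well ranks repeat between replicates. The deposited list thresholded on it, the IDR list, was made up of the strongest pooled regions by signal, so the rank window starts where that list ends.

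The material was whole Drosophila melanogaster larvae of the third instar at the wandering stage, mixed in sex and of unstated age. The larvae were of the jim-GFP strain, a stable transgenic line in which Jim carries GFP at its C terminus, and an anti-GFP antibody was used for the immunoprecipitation. There was 1 group of 2 biological replicates, numbered 1 and 3 in the labels, and library sizes spanned 175 to 275 bp in replicate 1 but 200 to 325 bp in replicate 3. A control experiment is named in the labels and its values were not used here, and what drives the transgene is not stated in the labels. In whole larvae, binding in few cells and weaker binding in many cells cannot be told apart. Read depth is unknown, and all intervals below are 95% intervals that cover counting error only.

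Jim is a transcription factor of the C2H2 zinc finger class. A promoter is the stretch around the transcription start where RNA polymerase II and the general factors assemble. In flies, promoters of housekeeping genes tend to carry short sequence elements such as the DNA replication-related element and some of the Ohler motifs. Many regulated promoters carry a TATA box, an Initiator or GAGA repeats. The insulator protein BEAF-32 recognises CGATA, and its sites overlap with the DNA replication-related element, which contains the same letters. Many fly genes lie head to head, so that a single region can serve a divergent pair of starts.

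Sequences around summits are shown for examples of sub-threshold promoter regions that hold a motif found more often than in weaker regions, where the window overlapped no annotated exon. They are not the strongest such regions in each case. Each reaches 50 bp to each side of the summit, on the plus strand of dm6, read from the RefSeq Release 6 genome sequence, with the matched letters in capitals. The first pair carries GAGA repeats (GAGAG or its complement) at REPTOR, a transcription factor gene of the TOR pathway, and Glys, the glycogen synthase gene. These windows are chr3R:24572656-24572756, 211 bp upstream of a REPTOR start, and chr3R:15147607-15147707, 126 bp upstream of a Glys start. The second pair carries the DNA replication-related element at CG4101 (chr3L:16612377-16612477, 59 bp upstream) and CG10011 (chr3R:28635144-28635244, 95 bp upstream). The third pair carries the BEAF-32 core CGATA at larp (chr3R:28336486-28336586, 96 bp upstream) and vsg (chr3L:9714216-9714316, 58 bp upstream). The last windows carry the core of Ohler motif 7 at wdb (chr3R:27582247-27582347, 56 bp upstream), which encodes a regulatory subunit of protein phosphatase 2A, an A tract at Cht5 (chr3R:13767444-13767544, 55 bp upstream), which encodes a chitinase, and a GC run at hid (chr3L:18185687-18185787, 96 bp upstream), which encodes an inducer of apoptosis.
REPTOR: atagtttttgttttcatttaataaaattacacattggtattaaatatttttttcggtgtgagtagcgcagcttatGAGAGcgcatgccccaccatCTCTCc
Glys: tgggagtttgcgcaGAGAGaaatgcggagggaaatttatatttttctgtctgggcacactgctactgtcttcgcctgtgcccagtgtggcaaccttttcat
CG4101: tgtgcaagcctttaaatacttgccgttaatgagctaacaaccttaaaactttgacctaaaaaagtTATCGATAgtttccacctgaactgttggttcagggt
CG10011: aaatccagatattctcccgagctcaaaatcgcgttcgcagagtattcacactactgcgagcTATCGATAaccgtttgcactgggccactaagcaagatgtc
larp: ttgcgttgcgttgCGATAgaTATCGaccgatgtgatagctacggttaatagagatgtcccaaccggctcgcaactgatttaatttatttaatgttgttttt
vsg: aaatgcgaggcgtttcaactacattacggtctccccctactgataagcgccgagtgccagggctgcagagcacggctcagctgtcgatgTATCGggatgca
wdb: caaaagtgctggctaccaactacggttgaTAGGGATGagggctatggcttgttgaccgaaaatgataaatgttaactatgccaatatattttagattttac
Cht5: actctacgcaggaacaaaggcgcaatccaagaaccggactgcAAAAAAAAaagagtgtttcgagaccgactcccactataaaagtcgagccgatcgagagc
hid: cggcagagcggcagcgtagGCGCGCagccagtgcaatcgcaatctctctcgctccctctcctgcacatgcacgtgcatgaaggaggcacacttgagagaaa

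At larp the window held 2 copies of CGATA on opposite strands, and at REPTOR it held 2 GAGA repeats on opposite strands. Each of the other 7 windows held 1 match of its motif. Pooled signals of these 9 regions were 65.17 at REPTOR, 65.07 at Glys, 64.01 at CG4101, 63.9 at CG10011, 63.85 at larp, 58.48 at Cht5, 58.07 at vsg, 55.96 at hid and 51.44 at wdb. The summits at vsg and hid lay in no region of replicate 3, while both replicates held a region at the other 7.

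Because signal chose the regions, signal and rank are given as a description. The pooled signal, on the scale of the authors' caller, ran from 47.18 to 65.20 with a median of 54.07 in the sub-threshold promoter regions. It ran from 65.29 to 491.5 with a median of 85.63 in IDR promoter regions, and from 20.59 to 47.17 with a median of 27.61 in weaker promoter regions. All 686 regions had the median width of the pooled list, 260 bp. The upper limit fell in a continuous series of values. The first regions inside it were at Usp12-46 (rank 1478, signal 65.20), REPTOR (rank 1480, 65.17) and Glys (rank 1486, 65.07), and the last promoter regions outside it were at tra2 (rank 1473, 65.29), CG46491 (rank 1471, 65.31) and CG32115 (rank 1470, 65.34). At the lower limit the last regions inside were at NTPase (rank 2997, 47.19), myd (rank 2998, 47.19) and Nmda1 (rank 3000, 47.18). The first outside were at dsx (rank 3002, 47.17), bon (rank 3006, 47.13) and Tm1 (rank 3007, 47.13). By distance, the outermost regions inside were at CG8176 (493 bp), Bacc (491 bp) and trio (489 bp), and the nearest excluded summits were at ab (510 bp), CG17834 (514 bp) and CG9044 (514 bp).

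Promoter-proximal summits made up a slightly smaller share of the rank window than of the IDR list, and still smaller shares further down. In the rank window 54.1% of regions off X were promoter-proximal (51.3 to 56.9, exact interval), against 58.7% of 1237 regions of the IDR list (55.9 to 61.5) and 21.5% of 23613 regions beyond rank 3000. Within the window, divided at its middle rank, the share was 56.1% in the stronger part and 52.1% in the weaker part. In 6 equal bins of rank it was highest in the strongest bin of the window, 61.2% (54.1 to 67.9), beside 56% (48.8 to 63.0) in the weakest of 6 bins of the IDR list, with intervals that overlap. In the 500 ranks that follow rank 3000 it was 43.3%, and at ranks 8501 to 9000 it was 23.9%. The distance rule fixes what counts as a promoter, and with 1 start per gene the share in the window was 42.6%.

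**Figure D1:**
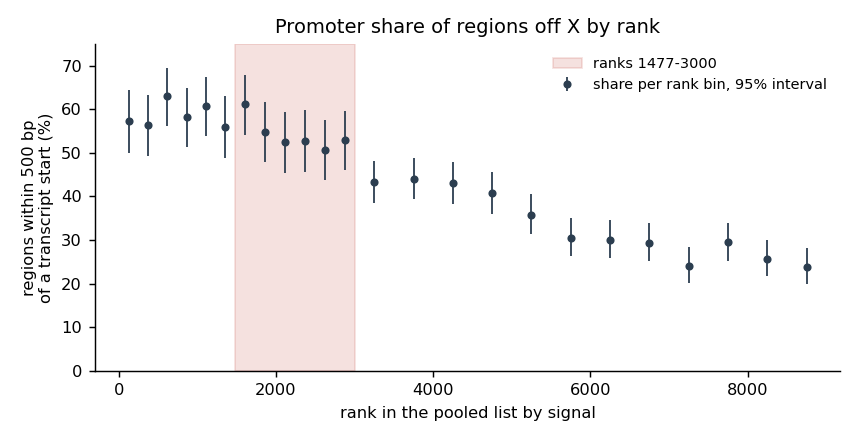
Share of regions off X with a summit within 500 bp of a transcript start (vertical axis, percent) in bins of pooled rank (horizontal axis), with points for bins and bars for exact 95% intervals. The 6 bins in the shaded window lie between 50.7 and 61.2%, and the bins beyond rank 3000 lie at 44.1% or lower.

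Most sub-threshold promoter regions had a counterpart in each replicate. A region counted as found when its pooled summit lay inside a region of the replicate list, each of which holds 30000 regions. Replicate 1 held 629 of the 686 (91.7%), replicate 3 held 617 (89.9%) and both held 563 (82.1%, 79.0 to 84.9), with 66 in replicate 1 alone and 54 in replicate 3 alone. For IDR promoter regions the share found in both was 92.6%, and for weaker promoter regions it was 27.4%. These shares carry no test, since the pooled signal holds the reads of both replicates. The 3 summits found in neither list were at Eip74EF, an ecdysone-induced ETS factor gene (signal 50.84), CG3792 (50.11) and kkv, a chitin synthase gene (49.58).

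Within the strongest regions of each replicate the overlap was small, and the selection itself favours this. Regions strong in both replicates tend to reach the IDR list, which the rank window leaves out. The counts that follow are therefore descriptions. Of the sub-threshold promoter regions, 119 (17.3%) fell among as many of the strongest regions of replicate 1 as the IDR list holds, 130 (19.0%) among those of replicate 3 and 7 (1.02%) in both, against 52.1% in both for IDR promoter regions. The 7 were at REPTOR, Coq3, Rab14, CG11593, sau, CG34140 and Ide. Ide, which encodes an insulin-degrading metalloprotease, had the lowest pooled signal of the 7, 58.96, and ranked 1068 in replicate 1 and 1192 in replicate 3. With the strongest 3000 regions of each replicate, 125 (18.2%) were in both and 109 (15.9%) in neither.

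Ranks of single regions differed widely between the replicates, which selection in a narrow band of pooled signal favours. To stay in such a band, a region high in 1 replicate tends to be lower in the other. The median rank was 2817 in replicate 1 (range 283 to 29212) and 2481 in replicate 3 (range 420 to 29144). Over the 563 regions found in both, Spearman's rho between the replicate ranks was -0.46, given as a description without a p value, because the members were chosen in a band of pooled signal that holds the reads of both replicates. The widest gaps were at CG17121 (rank 413 in replicate 1 and 29144 in replicate 3), Nup160, a nuclear pore gene (1046 and 28892), and exp (29212 and 1779). CG17121 and Nup160 stood high in replicate 1 and near the end of the list in replicate 3, and exp the other way round.

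**Figure D2:**
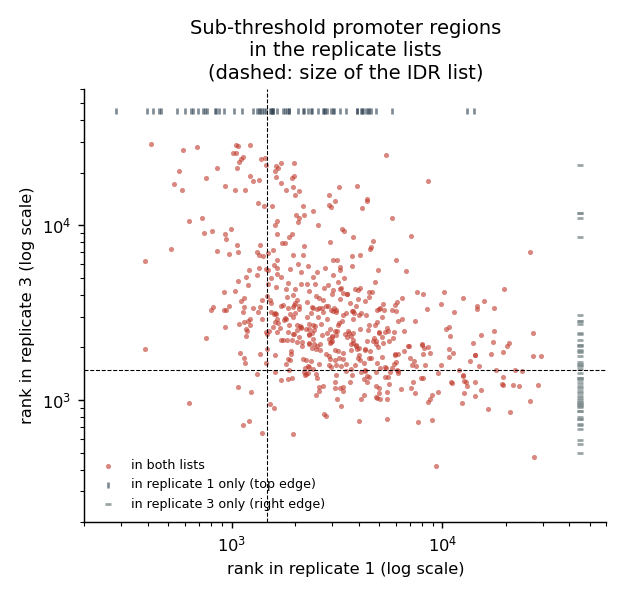
Rank in replicate 1 (horizontal, log axis) against rank in replicate 3 (vertical, log axis) for the sub-threshold promoter regions, 1 point per region, with dashed lines at a rank equal to the size of the IDR list and regions of 1 replicate alone at the edges. Of the 686 regions, 7 lie inside both dashed lines.

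Summits of the sub-threshold promoter regions gathered close to the start. The median distance was 53.5 bp (quartiles 26 and 126), against 54 bp in IDR promoter regions and 135 bp in weaker promoter regions. A summit lay within 100 bp of a start in 479 of 686 (69.8%), against 2111 of 5077 weaker promoter regions (41.6%), with odds 3.25 times as high (odds ratio interval 2.74 to 3.86; Fisher's exact test, two-sided, Benjamini-Hochberg adjusted p = 1.51e-43 over 5 attributes and both comparisons). This held under all 10 alternatives tried, with adjusted p from 7.49e-73 to 0.00031 by Fisher's exact test, while the odds ratio fell to 1.545 (69.8% against 59.96%) when the weaker regions were limited to the 3000 ranks that follow the window. Set against IDR promoter regions (510 of 726, 70.2%), the odds ratio was 0.98 with an interval of 0.78 to 1.23 and an adjusted p of 0.957 by Fisher's exact test. The units of these tests are regions rather than animals, so the p values describe these lists. Of the 5 attributes, 4 (80.0%) passed an adjusted p of 0.05 against weaker promoter regions and 1 (20%) against IDR promoter regions.

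**Figure D3:**
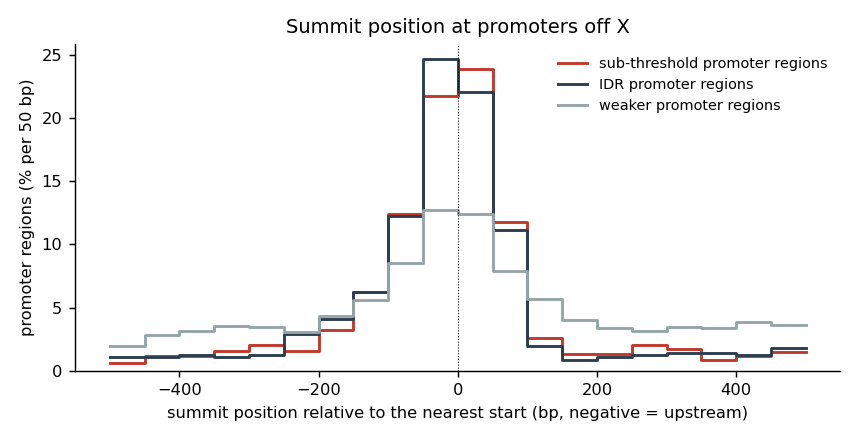
Position of summits relative to the nearest start (horizontal axis, bp, negative is upstream) as the share of each group per 50 bp bin (vertical axis, percent) for sub-threshold, IDR and weaker promoter regions off X. The bins beside the start hold 21.7% (upstream) and 23.9% (downstream) of the sub-threshold promoter regions.

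Divergent start pairs were counted when a minus-strand start lay within 1000 bp to the left of a plus-strand start of another gene and either lay within 500 bp of the summit. Such pairs accompanied 282 of 686 sub-threshold promoter regions (41.1%, 37.4 to 44.9), against 27.7% of weaker promoter regions, with an odds ratio of 1.82 (interval 1.54 to 2.14; Fisher's exact test, adjusted p = 7.95e-12). With the weaker regions limited to the 3000 ranks that follow the window the odds ratio was 1.21 and the adjusted p 0.169, and over all alternatives the adjusted p ran from 1.26e-26 to 0.169. Against IDR promoter regions (41.3%) the odds ratio was 0.991 (0.802 to 1.23; Fisher's exact test, adjusted p = 0.957). Summits upstream of the nearest start made up 51.7% of the sub-threshold promoter regions, against 55.9% of IDR promoter regions (odds ratio 0.845, interval 0.686 to 1.04, Fisher's exact test, adjusted p = 0.203) and 49.1% of weaker promoter regions (odds ratio 1.11, interval 0.946 to 1.30, adjusted p = 0.296).

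The nearest start belonged to a protein-coding gene in 625 of 686 (91.1%), against 92.7% of IDR promoter regions, and 85.4% of weaker promoter regions. The difference from weaker promoter regions passed (odds ratio 1.75, interval 1.33 to 2.30, Fisher's exact test, adjusted p = 7.04e-05) and did not pass with those 3000 ranks alone (odds ratio 1.12, adjusted p = 0.793). That from IDR promoter regions did not pass (odds ratio 0.807, interval 0.55 to 1.18, Fisher's exact test, adjusted p = 0.355). By annotation, 288 summits (42.0%) lay in a 5 prime UTR, 211 (30.8%) between genes, 136 (19.8%) in an intron, 32 (4.66%) in a noncoding exon, 16 (2.33%) in coding sequence and 3 in a 3 prime UTR.

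Summits in coding sequence were more frequent than in IDR promoter regions and less frequent than in weaker promoter regions. They made up 16 of 686 (2.33%), against 3 of 726 IDR promoter regions (0.413%), with an odds ratio of 5.76 (interval 1.67 to 19.8; Fisher's exact test, adjusted p = 0.00386). Against 622 of 5077 weaker promoter regions (12.3%) the odds ratio was 0.171 (interval 0.103 to 0.283; Fisher's exact test, adjusted p = 1.01e-18). In the stronger part of the window alone the first difference had an odds ratio of 2.06 and did not pass, and in the weaker part alone the odds ratio was 9.82, with adjusted p over the alternatives from 0.000125 to 0.571. With weaker regions from the 3000 ranks that follow the window the second had an odds ratio of 0.517 and an adjusted p of 0.0793. Examples were Lsp2 (signal 56.44), a larval serum protein gene, Cpr78E (52.95), a cuticle protein gene, GstZ1 (51.14), a glutathione transferase gene, and yip2 (48.06). The Lsp2 summit lay 21 bp inside the start, ranked 1092 in replicate 3 and fell in no region of replicate 1.

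Promoter motifs at the summits differed from those of weaker promoter regions, and which motifs passed depended on which weaker regions were compared. Each of 26 motifs was searched on both strands within 50 bp of the summit. Against weaker promoter regions, 10 motifs (38.5%) passed an adjusted p of 0.05, 7 of them more frequent and 3 less frequent, and 11 had an unadjusted p under 0.05. When the weaker regions were limited to the 3000 ranks that follow the window, 0 motifs passed, and when all groups were limited to summits within 100 bp of a start, an alternative added after seeing the data, 1 passed. Those 3000 ranks hold 1019 weaker promoter regions. Against them the 7 more frequent motifs had odds ratios from 0.966 to 1.36. For the 3 less frequent, odds ratios were 0.292 (Zelda site, 0.293 against all weaker), 0.671 (TATA box, 0.643) and 0.421 (nuclear receptor core, 0.292). Weaker promoter regions lie farther from starts, as given above, and how far the motif shares follow from that was not tested beyond these alternatives. The calls also depended on the replicate. With regions chosen and ranked without replicate 3, the DNA replication-related element, the BEAF-32 core and Ohler motif 7 of these 10 still passed, and without replicate 1 the A tract and the Initiator did. GAGA repeats, GC runs, the TATA box, the nuclear receptor core and the Zelda site passed in neither.

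The more frequent motifs included the DNA replication-related element, the BEAF-32 core and Ohler motif 7. The DNA replication-related element, TATCGATA, stood at 4.37% of sub-threshold promoter regions, 2.75% of IDR promoter regions and 1.97% of weaker promoter regions, with an odds ratio against the weaker of 2.28 (1.501 to 3.45; Fisher's exact test, adjusted p = 0.0147, from 9.12e-05 to 0.822 over the alternatives). It stood at 3.51% of windows of the same size centred on all 19674 starts off X. The BEAF-32 core CGATA, which is contained in that element, stood at 22.7%, 19.97% and 17.9% of these groups in the same order, and at 20.6% of all starts (odds ratio 1.35 against the weaker, interval 1.11 to 1.64, Fisher's exact test, adjusted p = 0.0193, from 4.95e-07 to 0.963 over the alternatives). Of 156 sub-threshold promoter regions with CGATA, 30 held the longer element. The core of Ohler motif 7, CATCNCTA, stood at 4.08%, 5.10% and 2.03%, and at 2.68% of all starts (odds ratio 2.05, interval 1.34 to 3.15, Fisher's exact test, adjusted p = 0.0193, from 0.000158 to 0.963 over the alternatives). Its excess lay in the weaker part of the window, with 6.63% and an odds ratio of 3.43, against 1.695% and an odds ratio of 0.833 in the stronger part. Other elements of core promoters did not pass against weaker promoter regions. The Motif 1 core stood at 1.90% of sub-threshold and 1.52% of weaker promoter regions (odds ratio 1.25, interval 0.693 to 2.27, Fisher's exact test, adjusted p = 0.743). The E-box CAGCTG stood at 5.83% and 6.03% (odds ratio 0.965, interval 0.687 to 1.36, Fisher's exact test, adjusted p = 0.989).

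The other motifs found more often were simple repeats and the Initiator. GAGAG, the letters bound by the GAGA factor, stood at 21.4% of sub-threshold promoter regions, 20.5% of IDR promoter regions and 16.01% of weaker promoter regions, and at 12.6% of all starts (odds ratio 1.43, interval 1.17 to 1.74, Fisher's exact test, adjusted p = 0.0147, from 0.00034 to 0.822 over the alternatives). Runs of 8 A stood at 8.31%, 11.3% and 5.14%, and at 4.12% of all starts (odds ratio 1.67, interval 1.24 to 2.25, Fisher's exact test, adjusted p = 0.0193, from 9.12e-05 to 0.822). GCGCGC stood at 4.08%, 5.23% and 2.21%, and at 2.15% of all starts (odds ratio 1.89, interval 1.24 to 2.88, Fisher's exact test, adjusted p = 0.0265, from 0.000476 to 0.822). TCAGT, the Initiator letters, stood at 25.5%, 26.7% and 20.4%, below the 30.4% of all starts (odds ratio 1.34, interval 1.11 to 1.61, Fisher's exact test, adjusted p = 0.0193, from 0.00232 to 0.999), and without replicate 3 its odds ratio was 0.986.

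The motifs found less often than in weaker promoter regions were the TATA box, a nuclear receptor core and the Zelda site. TATAAA, the TATA box, stood at 7.43% of sub-threshold promoter regions, 6.75% of IDR promoter regions and 11.1% of weaker promoter regions, and at 15.6% of all starts (odds ratio 0.643 against the weaker, interval 0.477 to 0.866, Fisher's exact test, adjusted p = 0.0193, from 0.00427 to 0.694). It was the motif that still passed when all summits lay within 100 bp of a start, with an odds ratio of 0.504 and an adjusted p of 0.0157. AGGTCA, a core recognised by many nuclear receptors, stood at 4 sub-threshold promoter regions (0.583%), against 0.964% of IDR and 1.97% of weaker promoter regions (odds ratio 0.292 against the weaker, interval 0.107 to 0.796, Fisher's exact test, adjusted p = 0.0398, from 0.024 to 0.822). Its odds ratio was 0.498 without replicate 3 and 0.502 without replicate 1, with adjusted p of 0.303 and 0.346 by Fisher's exact test in the same order, and it passed under 2 of 12 alternatives.

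The site CAGGTA of Zelda, a zinc finger factor known for opening chromatin in the early embryo, was the motif that differed from IDR promoter regions, 1 of 26 (3.85%). It stood at 5 sub-threshold promoter regions (0.729%), against 20 IDR promoter regions (2.75%), with an odds ratio of 0.259 (interval 0.0967 to 0.694; Fisher's exact test, adjusted p = 0.0238). Against 124 weaker promoter regions (2.44%) the odds ratio was 0.293 (interval 0.12 to 0.72; Fisher's exact test, adjusted p = 0.0193). The first adjusted p ran from 0.00696 to 1.0 over the alternatives, and the odds ratio was 1.05 without replicate 3 and 0.638 without replicate 1. Against weaker promoter regions the odds ratio was 0.921 without replicate 3 and 0.745 without replicate 1, with adjusted p of 0.999 and 0.773 by Fisher's exact test in the same order, so that leaving out either library ended both calls. The 5 regions were at eEF1alpha1, a translation elongation factor gene (signal 54.16), Fhos (51.42), psq (49.86), 14-3-3zeta (48.17) and Cad74A, a cadherin gene (47.42). Their signals lay between 47.42 and 54.16, and 2 of the 5, eEF1alpha1 and psq, fell in no region of replicate 1.

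**Figure D4:**
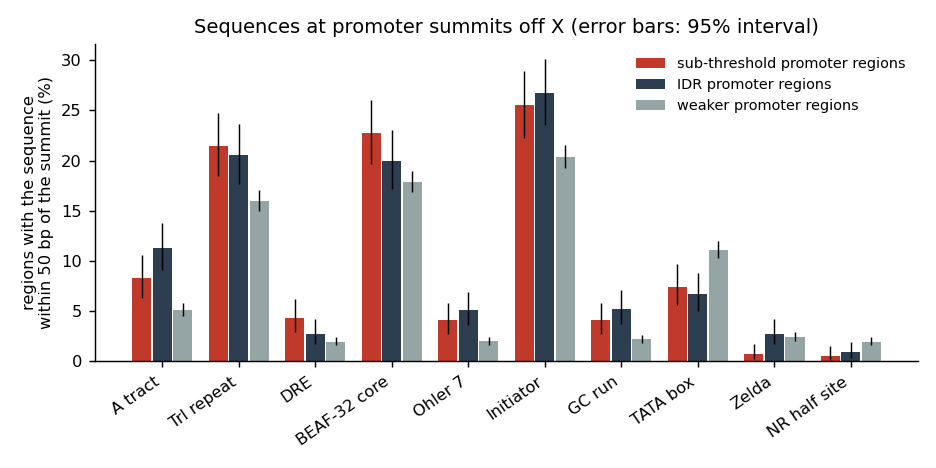
Share of regions with each motif within 50 bp of the summit (percent) for sub-threshold, IDR and weaker promoter regions off X, with exact 95% intervals as error bars, DRE for the DNA replication-related element and Trl repeat for GAGA repeats. The DNA replication-related element stands at 4.37% of sub-threshold and 1.97% of weaker promoter regions, and the Zelda site at 0.729% and 2.44%.

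Median positions of the motifs relative to the start differed, while many quartile ranges overlapped, and no test was run. The 31 copies of the DNA replication-related element had a median position of -19.5 bp (quartiles -41 and -7.5), and 87.1% lay upstream of the start. The median position was -19 bp for the BEAF-32 core (quartiles -45 and 14), -27 bp for Ohler motif 7 (-45.75 and 1.5) and -26 bp for GAGA repeats (-114 and 63). It was 1.5 bp for the Initiator (quartiles -42.25 and 24), which is defined around the start, 33.5 bp for A tracts (-58.25 and 196.75) and 38 bp for GC runs (4.5 and 53.5). These positions are descriptions of windows that follow the summit.

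A scan of all 2080 6-mers gave 12 with a different share than in weaker promoter regions (0.577%), 7 more and 5 less frequent, with 334 at an unadjusted p under 0.05. Those more frequent were GC-rich, such as AGCGGA (9.04% against 4.45%; Fisher's exact test, adjusted p = 0.0062), GCGAAC (9.33% against 4.94%) and CACGTC (5.98% against 2.56%). Those less frequent included the A- and T-rich CATAAA (3.79% against 8.63%), CATATA (3.06% against 7.11%) and TACATA (3.64% against 7.86%). With weaker regions from the 3000 ranks that follow the window, or with all summits within 100 bp of a start, 0 passed. Against IDR promoter regions 0 of 2080 (0.0%) passed, with 111 at an unadjusted p under 0.05. The median GC content within 50 bp of the summit was 44.6% in sub-threshold, 46.04% in IDR and 43.6% in weaker promoter regions.

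The strongest sub-threshold promoter regions with a protein-coding nearest start lay at genes of many roles. At Usp12-46, a deubiquitinase gene, the region spanned 22750700 to 22750959 on 3R with the summit 71 bp upstream of the start, and had a pooled signal of 65.20, rank 1966 in replicate 1 and rank 635 in replicate 3. At REPTOR (3R, 24572576 to 24572835) the ranks were 1212 and 762 in the same order, and an IDR summit lay 701 bp away. At Glys (3R, 15147527 to 15147786) the ranks were 3079 and 1271. Replicate 3 ranked all 3 regions higher than replicate 1 did.

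Further regions among the strongest 20 lay at Cdk12, TfIIA-S, Nf-YA and Hat1. Cdk12, which encodes a kinase of the RNA polymerase II tail, stood at 64.86 in the pooled list, with rank 565 in replicate 1 but 20333 in replicate 3 (3L, 21516134 to 21516393). TfIIA-S, which encodes a subunit of the general factor TFIIA, had a signal of 64.37 and ranks of 2258 and 1688 (3R, 23891025 to 23891284). Nf-YA, which encodes a subunit of the CCAAT-binding factor NF-Y, had a signal of 64.36 and ranks of 1449 and 1624 (3L, 9442166 to 9442425). Hat1, a histone acetyltransferase gene, had a signal of 64.26 and ranks of 2603 and 1194, and its region also lay 374 bp from a start of Rpn5, a proteasome subunit gene.

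Coq3, Rab14 and Ac76E were also among these 20. Coq3, which encodes a methyltransferase of ubiquinone synthesis, had a signal of 64.84 with ranks of 627 and 960 (2L, 21158537 to 21158796). Rab14, which encodes a small GTPase of vesicle transport, had 64.81 with ranks of 1127 and 716 and a summit 267 bp downstream of the start in the 5 prime UTR (2L, 14355282 to 14355541). Ac76E, an adenylyl cyclase gene, had 64.60 with ranks of 3684 and 1499. All 20 were found in both replicates, 10 lay at divergent starts, and among as many of the strongest regions of a replicate as the IDR list holds stood 10 in replicate 1 and 9 in replicate 3.

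A sub-threshold promoter region lay within 500 bp of a start of 785 of 11749 protein-coding genes off X (6.68%), and an IDR region at 862 (7.34%). Both kinds were present at 84 genes, and 701 genes (5.97%) had a sub-threshold promoter region without an IDR region at any start. Genes with more annotated starts have more chances to be counted, and the mean number of starts was 1.99 in the 785 genes and 1.34 in the others. Single regions could serve several genes, since 189 of the 686 had more than 1 protein-coding gene within 500 bp and 50 had none. In turn 50 genes had more than 1 such region, and larp, px and Svil had 3 each, with signals from 49.10 to 63.85 at larp, 48.65 to 62.58 at px and 48.42 to 60.55 at Svil. The counts of the gene lists below are descriptions beside the 6.68% of all genes, without a test, and many lists are short.

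Among the signalling lists the share ran from 0 to 33.3%. Taking the whole pooled list instead of the window, 44.4% of protein-coding genes off X had a region near a start. It was 66.7% for Dpp, 84.2% for EGF receptor, 78.6% for Hippo, 72.7% for Notch and 76.5% for ecdysone genes. For Wingless genes it was 81.25%, for JNK 100% and for heat shock 42.3%, all with 0 genes in the window. Whether the shares in the window exceed what these wider shares would give was not tested. Of 15 Dpp pathway genes, which transmit the fly BMP signal, 5 (33.3%, 11.8 to 61.6) had a sub-threshold promoter region and 2 an IDR region. Among receptors, wit had a signal of 61.04 (3L, 4071538 to 4071797) with ranks of 2338 in replicate 1 and 2545 in replicate 3, and tkv had 51.31 (2L, 5237550 to 5237809) with ranks of 4236 and 1069. Among transducers and nuclear factors, Med, the co-Smad, had 55.09, ranked 685 in replicate 3 and was absent from replicate 1, and shn, a zinc finger partner of the Smads, had 52.55 and also an IDR region at a start. The inhibitory Smad gene Dad had 47.74 with a summit 14 bp from its start. Med was the only one of the 5 that lay in 1 replicate alone.

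Of 19 EGF receptor pathway genes, 5 (26.3%, 9.15 to 51.2) had a sub-threshold promoter region and 7 an IDR region. The ligand gene Krn had a signal of 48.79 in a region whose nearest start was that of Ndfip, at a divergent pair. The nuclear repressor gene aop (Yan) had 62.93 (2L, 2178590 to 2178849) with ranks of 1812 and 1602, and also an IDR region at a start. The feedback inhibitor genes kek1 and sty (sprouty) had 57.99 and 48.79. The adaptor gene drk had 48.29.

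Of 14 Hippo pathway genes 4 (28.6%, 8.39 to 58.1) were counted, against 2 with an IDR region. The upstream genes were kibra with a signal of 57.13 and ft, which encodes the atypical cadherin Fat, with 50.38, and the kinase gene hpo had 49.63. An IDR region at a start was also present for kibra. In replicate 3 the ft region ranked 22630. Diap1, a target of the pathway that encodes a caspase inhibitor, had regions at 2 starts with signals of 62.48 and 59.17, the second absent from replicate 3. Of 22 Notch pathway genes 4 (18.2%) were counted, namely kuz, which encodes the metalloprotease that cleaves Notch (64.66), mam, a nuclear coactivator (60.60), fng, a glycosyltransferase (57.16), and numb, an inhibitor (54.03). Among these 4, mam also had an IDR region at a start.

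Of 17 ecdysone response genes 5 (29.4%, 10.3 to 56.0) were counted and 3 had an IDR region. The nuclear receptor gene Hr39 had a signal of 63.06 (2L, 21237109 to 21237368) with ranks of 2709 and 1203, and the receptor coactivator gene tai had 62.76 with ranks of 993 and 9526. The early gene Eip74EF had 61.93 at a start on 3L (17619207 to 17619466), ranked 1851 and 1705, and a second region at another start that neither replicate held. Eip75B, an early nuclear receptor gene, had 56.20 and crol, a zinc finger gene, had 51.33, and both also had an IDR region at a start. Ecdysone is the steroid that drives the wandering larva toward pupariation.

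The Wingless, JNK and heat shock lists held no such gene. Of 16 Wingless pathway genes 0 had a sub-threshold promoter region (up to 20.6%) and 4 an IDR region, of 8 JNK pathway genes 0 (up to 36.9%) and 3, and of 26 heat shock and chaperone genes 0 (up to 13.2%) and 6. Of 15 insulin and TOR genes 1 was counted, InR, the insulin receptor gene (49.43, absent from replicate 3), and 7 had an IDR region, InR among them. Of 21 innate immunity genes 4 (19.0%) were counted, namely the kinase gene pll (63.07), the peptidoglycan receptor gene PGRP-LC (54.68), the NF-kappaB gene Rel (51.16) and the adaptor gene Myd88 (50.70). Among these 4, Myd88 also had an IDR region at a start.

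Among the housekeeping lists, here and in the next paragraph, the share ran from 3.23 to 16.7%. The intervals were not adjusted for the number of lists and serve as description beside the 6.68% of all genes. Over the whole pooled list 73.6% of cytoplasmic ribosomal protein genes had a region near a start, against 44.4% of all genes. Whether their share in the window exceeds what this wider share would give was not tested. For the other housekeeping lists that share ran from 38.1 to 55.3%. Of 72 cytoplasmic ribosomal protein genes off X, 12 (16.7%, 8.92 to 27.3) had a sub-threshold promoter region and another 12 an IDR region, with 0 genes in both. The strongest were RpS23 with a signal of 59.74, RpS12 with 59.43, RpL3 with 59.08 and RpL28 with 58.29, the last in a region that also lay 388 bp from a start of eIF1. Of 62 mitochondrial ribosomal protein genes 2 (3.23%) were counted and 9 had an IDR region. Of 42 proteasome subunit genes 6 (14.3%, 5.43 to 28.5) were counted, against 1 with an IDR region. Among the 6 were Rpn5 (64.26), Rpn13 (62.86), Prosalpha5 (61.13) and Rpn3 (50.24, absent from replicate 3). All but Prosalpha5 of the 6 lay at a divergent pair, and for 4 of the 6 the nearest start was that of another gene.

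Of 76 genes of the respiratory chain and ATP synthase 7 (9.21%, 3.78 to 18.1) were counted and 2 had an IDR region. The ATP synthase genes were blw (61.23), ATPsynbeta (58.09) and ATPsynD (52.10), and ND-42, a complex I gene, had 54.08. The ND-42 region had its nearest start at Cchl and was absent from replicate 3. All 7 lay at a divergent pair. Of 47 translation factor genes 5 (10.6%) were counted, led by eIF1 (58.29), eIF2A (56.90), eIF3a (54.52) and eEF1alpha1 (54.16). For eIF1 the nearest start was that of RpL28. Of 28 spliceosome and SR protein genes 4 (14.3%) were counted, namely snRNP-U1-C (59.87), Sf3a1 (54.79), SC35 (51.30) and SF2 (47.95). The nearest start was that of gukh for snRNP-U1-C and that of eRF3 for SC35. The SC35 region was also counted among the translation factors, at eRF3. Both SC35 and eRF3 also had an IDR region at a start. The SF2 summit lay in no region of replicate 3.

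Among chromatin genes, 3 of 19 remodelling genes were counted, kis (56.97, also with an IDR region at a start), Bap170 (56.19, absent from replicate 3) and MTA1-like (50.85). Of 21 Polycomb and trithorax group genes 2 were counted, Jarid2 (64.03) and E(z), the histone methyltransferase gene (51.57). Both summits were absent from replicate 3, with ranks of 463 and 453 in replicate 1. The nearest start of the Jarid2 region was that of Uch-L5. Of 16 insulator genes 2 were counted, BEAF-32 itself (58.39, rank 2153 in each replicate, also with an IDR region at a start) and Cp190 (56.49, absent from replicate 3). Of 27 cell cycle genes 1 was counted, Dp (51.55), the E2F partner, which also had an IDR region at a start. At the other end, 2 of 113 cuticle protein genes (1.77%, 0.215 to 6.25) were counted, Cpr73D (54.42) and Cpr78E (52.95), and 0 had an IDR region. Over the whole pooled list 21.2% of the cuticle protein genes had a region near a start, against 44.4% of all genes. The Cpr73D region had its nearest start at Ogdh and was absent from replicate 1. Of 8 Hox genes 1 was counted, abd-A (53.93).

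**Figure D5:**
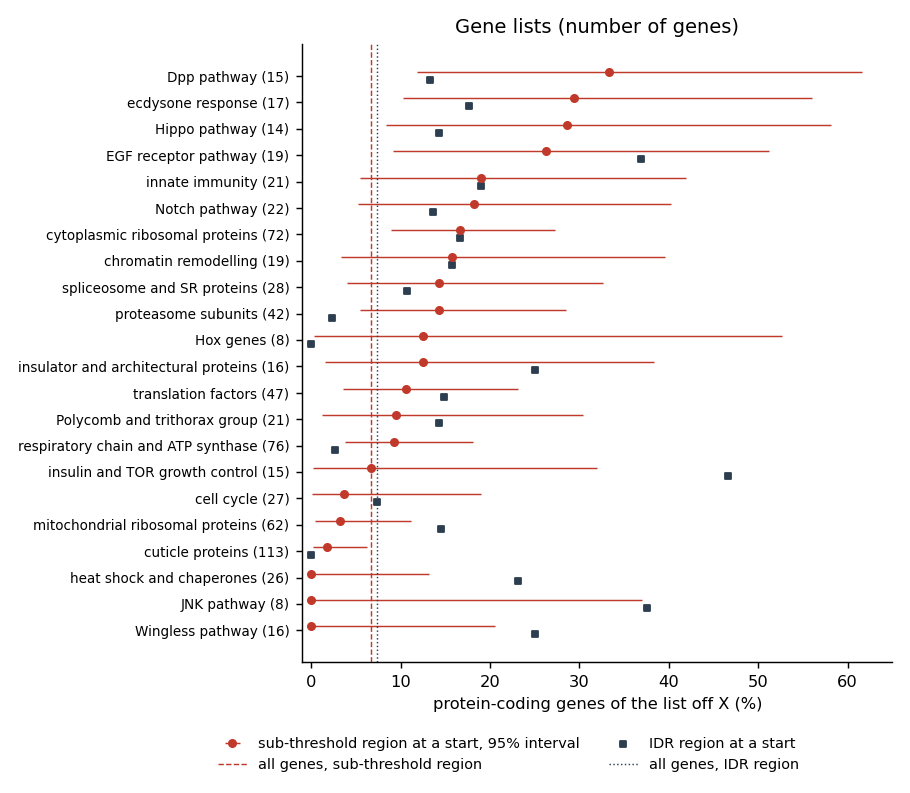
Share of the protein-coding genes of each list off X (horizontal axis, percent) with a sub-threshold promoter region at a start (circles, exact 95% intervals) and with an IDR region (squares), and dashed and dotted lines at the shares over all genes, 6.68% and 7.34%. The intervals are wide, and those of the Dpp and ecdysone lists run from 11.8 to 61.6% and from 10.3 to 56.0%.

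Chromosome 4 and tRNA genes held small shares of the sub-threshold promoter regions, near those of weaker promoter regions. The share of all starts on chromosome 4 or at tRNA genes is not given here. Chromosome 4, a small and largely heterochromatic chromosome, held 8 of 686 (1.17%, 0.505 to 2.28), 0 of 726 IDR promoter regions (up to 0.507%) and 61 of 5077 weaker promoter regions (1.20%). The 8 were at the antisense RNA gene asRNA:CR43957 (64.57, rank 1509), ATPsynbeta (58.09), Mpv17 (53.80), Gyf (50.85), CG11360 (50.32), Asator (49.92), Rad23 (49.74) and zfh2 (47.31). Rad23 ranked 28356 in replicate 1 and 1221 in replicate 3, and Gyf was absent from replicate 1. These counts carry no test, and the rank rule sets the groups. The IDR list held no region on chromosome 4 at any distance from a start, so its absence there is not particular to promoters.

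The nearest start was that of a tRNA gene in 9 of 686 (1.31%), 1 of 726 IDR promoter regions (0.138%) and 93 of 5077 weaker promoter regions (1.83%). The strongest were tRNA:Gly-GCC-1-13 (60.62), tRNA:Thr-AGT-1-7 (59.28) and tRNA:Thr-AGT-1-4 (58.78), and the weakest was tRNA:Arg-TCG-2-4 (47.20). tRNA genes are transcribed by RNA polymerase III and occur in near-identical copies, between which reads cannot always be assigned, so their single values are uncertain. A further 48 nearest starts were those of other noncoding RNA genes, 2 of snoRNA genes, 1 of an snRNA gene, snRNA:U1:95Ca (57.69), and 1 of a pseudogene.

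Few sub-threshold promoter regions flanked an IDR region. Of the 678 on chromosome arms with an IDR region, 21 (3.10%) had an IDR summit within 500 bp, 73 (10.8%, 8.54 to 13.3) within 1000 bp and 184 (27.1%) within 5000 bp. Among weaker promoter regions 5.74% of 5016 had an IDR summit within 1000 bp and 17.9% within 5000 bp. The median distance of a sub-threshold promoter summit to the nearest IDR summit was 17073.5 bp, and the shortest was 203 bp. An IDR summit within 260 bp, the width of a region, was present at 1 of the 678.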

How the data were processed

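Members and lists of genes and motifs were chosen with earlier results of these data known. The deposited lists are narrowPeak files on dm6 and dm3, and only dm6 was used. The authors' deposited signal value orders the regions, the deposited q-value field was treated as a score because 20027 pooled regions held values below 0, and the deposited offset gave the summit. Per the deposited text notes, each list derives from alignments and a control. No source used here names the aligner, the caller or the threshold on IDR. The scale of the signal differed between lists (lowest value 20.58 pooled, 10.94 in replicate 1, 12.36 in replicate 3), so replicates were compared by rank. Starts came from Ensembl release 115 (BDGP 6.54), without transposable elements, and sequence from RefSeq Release 6, the sequence of dm6. Coordinates count from 1. Shares of 26 motifs, 2080 6-mers and 5 attributes were compared by two-sided Fisher's exact tests, with p values adjusted by the Benjamini-Hochberg method over both comparisons of a family (threshold 0.05). Intervals on shares are Clopper-Pearson intervals and those on odds ratios Woolf intervals, at 95%. The test was tried on simulated data. The 22 gene lists held 352 entries, 11 unmatched and 10 matched through an older symbol. These are not counts of genes, since the lists matched more genes than they held entries. Genes and regions were named by rules on rank, signal and replicate gap. The regions named for coding sequence, chromosome 4, tRNA genes and Zelda sites, and those shared by the strongest regions of both replicates or found in neither, were chosen after their values were seen. Software versions were scipy 1.17.1, pandas 2.3.3, numpy 2.4.6 and matplotlib 3.10.9 under Python 3.11.15.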

Additional observations from a re-analysis of the deposited data

How the results depend on the processing

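No paired analysis was possible because the study has 1 group, without groups to pair. Leaving out a replicate means that ranks, members and comparison groups were taken from the list of the other replicate. The promoter share of the rank window (54.1%) was 46.61% with 250 bp, 63.41% with 1000 bp, 50.16% with starts of protein-coding genes and 42.59% with 1 start per gene, and 45.17 to 53.17% leaving out a replicate. The share of genes (6.68%) was 5.498% with 250 bp, 8.103% with 1000 bp, 5.592% with 1 start per gene, 3.609% with the stronger and 3.311% with the weaker part of the window, and 5.915 to 6.613% leaving out a replicate. Divergent starts (41.1%) stood at 45.18% with 250 bp and 35.07% with 1000 bp, and 39.9 to 43.82% leaving out a replicate. Summits within 100 bp of a start (69.8%) were 81.05% with 250 bp, 59.58% with 1000 bp and 65.56% with 1 start per gene, and 65.11 to 70.99% leaving out a replicate. The share found in both replicates (82.1%) was 18.22% in the strongest 3000 regions and 88.19% with any overlap. Motifs called against weaker promoter regions (10) numbered 0 with 250 bp, 0 in the stronger and 3 in the weaker part of the window, 0 with weaker regions from the 3000 ranks that follow it, 1 with all summits within 100 bp of a start, and 3 to 5 leaving out a replicate. Those against IDR promoter regions (1) numbered 0 with 250 bp, 1000 bp, either part of the window, 100 bp to each side of the summit or all summits within 100 bp of a start, and 0 to 3 leaving out a replicate. Called 6-mers against weaker promoter regions (12) numbered 86 with 100 bp to each side, and 0 with those 3000 ranks or all summits within 100 bp of a start, and those against IDR promoter regions (0) numbered 3 with 100 bp to each side. Called attributes numbered 1 against those 3000 ranks (4 against all weaker promoter regions), and 0 against IDR promoter regions in the stronger part (1 in the whole window). Odds ratios that crossed 1 were 0.966 for the BEAF-32 core against those 3000 ranks and 0.833 for Ohler motif 7 in the stronger part. Leaving out a replicate gave 0.986 to 1.371 for the Initiator against weaker and 0.6379 to 1.05 for the Zelda site against IDR promoter regions, each crossing 1 without replicate 3. The limits of summits to 100 bp of a start, the use of those 3000 ranks for 6-mers and attributes, and the other alternatives for attributes were added after seeing the data. The parts of the window were divided at its middle rank. Narrower windows and rank ranges hold fewer regions, and other causes of these changes were not tested. Depth is unknown and the lists end at 30000 regions, so absence from a list does not show absence of binding.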
